A study of Mus musculus with 12 samples.

Results

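Acinar-to-ductal metaplasia (ADM) is a change in which pancreatic acinar cells, which make and secrete digestive enzymes, lose that character and take on features of duct cells. Gene expression in mouse ADM cultures, measured on 3 Affymetrix arrays, was set against that of adult acinar cells on 3 arrays. These were 6 of the 12 arrays of the series. The comparison covered 22180 genes, each measured by a probe set that carries exactly 1 gene symbol. Where a gene had several such probe sets, the brightest over all 12 arrays stood for it. ADM cultures had been kept for 7 days in a collagen gel and treated with TGF-alpha at 50 ng/ml, which activates the epidermal growth factor (EGF) receptor. Adult acinar cells had been released from the pancreas by digestion, and their RNA was extracted without culture. Freshly released embryonic acinar cells and low-passage tumor cells, with 3 arrays each, serve below to place the ADM values. The labels give the strain of all cells as C57Bl6/J wildtype. They give neither ages nor the cells that were placed in collagen. Whether the replicates came from different animals or cultures is also not stated, so a p-value here reflects array-to-array spread, which may be technical. Time in culture, collagen and TGF-alpha all separate ADM from adult cells, and their effects cannot be told apart.

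A mature acinar cell makes digestive enzymes at a very high rate, folds them in an extensive endoplasmic reticulum (ER), stores them in zymogen granules and releases them when cholecystokinin or acetylcholine raises its calcium. Transcription factors such as Ptf1a, Rbpjl, Nr5a2 and Bhlha15 (also called Mist1) hold this program. When the pancreas is injured, or when EGF receptor signalling to RAS and MAPK is sustained, acinar cells can dedifferentiate, form duct-like structures that express keratins such as Krt19, and re-enter the cell cycle. In mice, such metaplasia can revert.

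Values below are log2 signal, given in the order of arrays 1, 2 and 3 of each group. Differences are ADM minus adult on the log2 scale with the standard error (SE) of a limma fit over all 12 arrays (n = 3 arrays per group), and adjusted p-values are Benjamini-Hochberg values over all genes. The SE uses a spread pooled over the 4 groups. Calls required both an adjusted p under 0.05 and a difference of 1 or more in either direction. Background was set at 3.62, the level that 95% of the group means of 1394 receptor genes of the nose (olfactory and vomeronasal) do not exceed. Where the dimmer group lay at or under it, a fold change is given as "at least", computed against that level. The adult arrays correlated with each other across genes at 0.967 to 0.971, the ADM arrays at 0.988 to 0.991, and arrays of the different groups at 0.869 to 0.887.

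In ADM, 2766 genes were called higher than in adult cells, 12.5% of those tested, and 935 were called lower, 4.22%. Calls in the higher direction made up 74.7% of the total, but this split depended on scaling. It was 59.5% under quantile normalization, 59.4% under cyclic loess and 40.8% when each array was centred on 12 housekeeping genes. The 75th percentile of the genes lay at 6.17 to 6.21 on ADM arrays, against 5.54 to 5.65 on adult arrays, whereas the median of the per-gene differences was -0.11. Quantile normalization moved that median to -0.02, loess to -0.0015 and housekeeping centring to -0.49. Large changes ran in both directions, with 90 genes called higher and 58 called lower by at least 4 on the log2 scale. There were 177 genes above background on every ADM array and at or under it on every adult array, and 118 of them were called. The reverse held for 347 genes, of which 93 were called. Every ADM array lay above every adult array for 25.1% of all genes and below every adult array for 24.7%. Lack of overlap alone was therefore common.

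The genes were read through 55 lists of acinar, epithelial, signalling, matrix, cell cycle, metabolic, chromatin and cell type genes, which held 1022 distinct measured genes. Of these, 423 were called higher and 124 lower in ADM, and 475 were not called. All of the lists are shown in the plot of called shares.

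**Figure D1:**
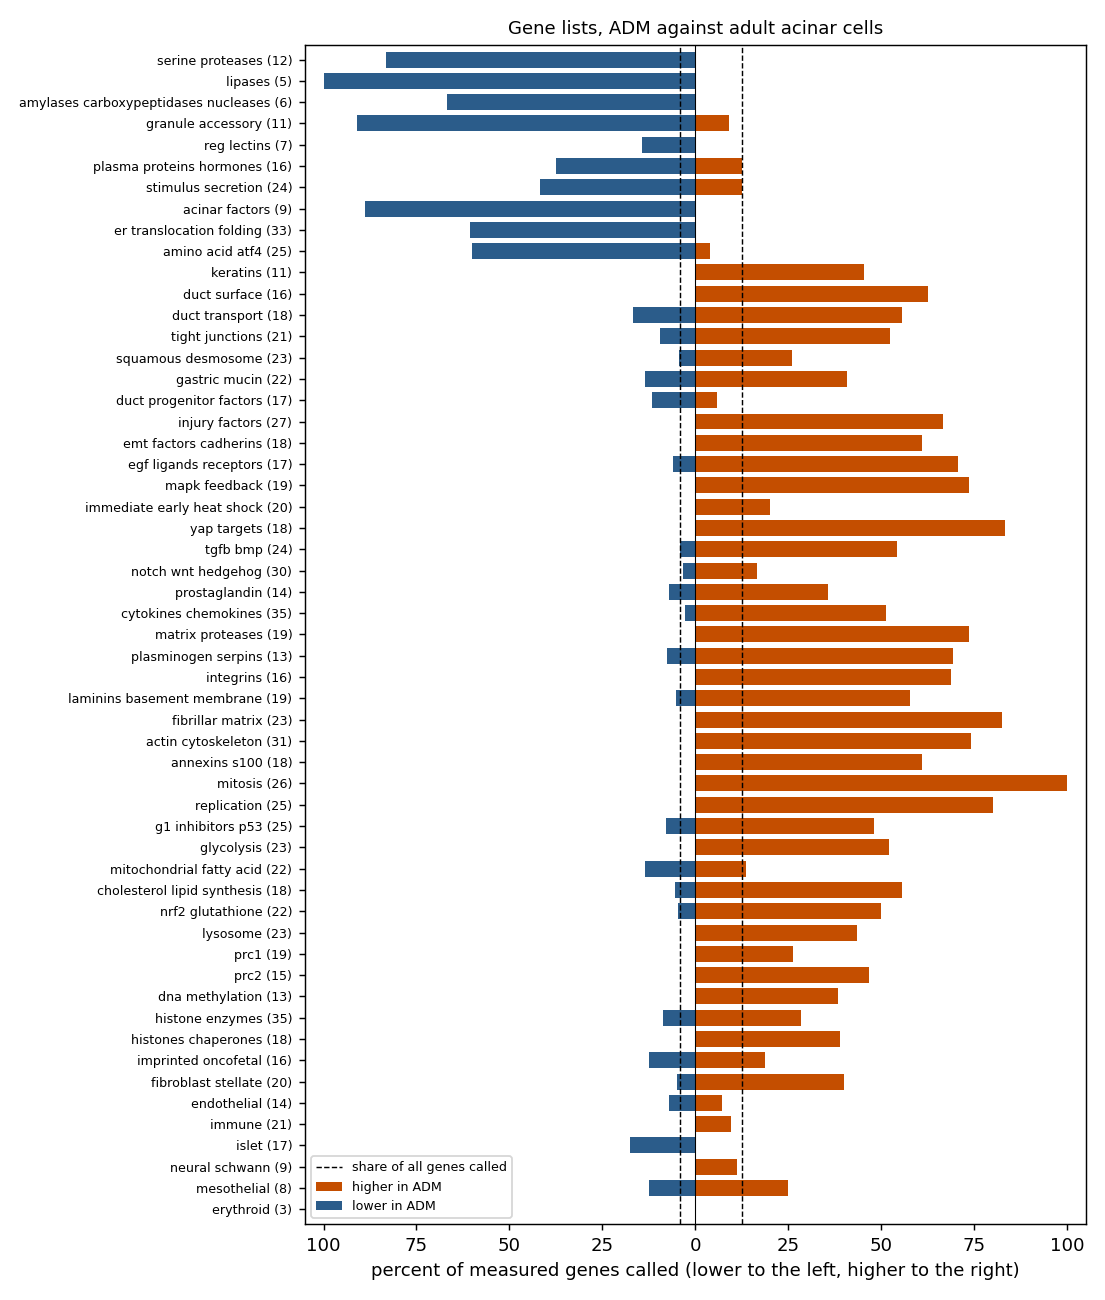
Percent of the measured genes of each of 55 lists that were called higher (orange bars, to the right) or lower (blue bars, to the left) in ADM than in adult acinar cells, with the number measured in brackets; dashed lines mark the shares of all genes, 12.5% and 4.22%. Bars to the left are longest for enzymes, acinar factors and ER genes, and the mitosis list reaches 100% to the right.

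Digestive enzymes, their cofactors and granule proteins were mostly lower in ADM. Of 34 measured genes in 4 lists (serine proteases, lipases, amylases with carboxypeptidases and nucleases, and granule accessory proteins), 29 fell and 1 rose. Only 4.22% of all genes were called lower. The serine protease list had 10 of 12 genes lower with a median difference of -4.02, and lipases had 5 of 5 lower with a median of -3.0. In a bulk sample, fewer acinar cells and less RNA per acinar cell cannot be told apart. Enzyme genes took 1.53%, 0.999% and 0.858% of the linear signal on the ADM arrays, against 5.12%, 5.31% and 5.27% on the adult arrays. On tumor arrays they took 0.0151% to 0.0185%.

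The enzyme genes did not move as a block. Ctrb1, which encodes chymotrypsinogen B, read 13.17, 13.08 and 13.11 on ADM arrays, against 13.36, 13.27 and 13.32 on adult arrays. The groups did not overlap, yet the difference was -0.20 ± 0.27 (adjusted p = 0.593). That SE came from the pooled fit, since the standard deviation (SD) was 0.0458 in ADM and 0.0451 in adult cells. Cpa1, carboxypeptidase A1, read 12.70, 12.34 and 12.19 in ADM, against 13.15, 13.14 and 13.11 in adult cells, and missed the size threshold at -0.72 ± 0.18. Every ADM array thus lay within 1 unit of every adult array for both genes. Their values lie close to 13.67, the highest signal on any array, and whether the top of the scale compresses differences was not tested. By contrast Ctrc read 4.14, 4.37 and 4.34 in ADM, against 11.42, 11.30 and 11.34 in adult cells. It is named for chymotrypsin C, but RefSeq lists it as a transcribed pseudogene. Cela3a, an elastase, was at least 29.7-fold lower. Amy2b, a pancreatic amylase, fell by 6.50 ± 0.33 and the phospholipase Pla2g1b by 5.76 ± 0.76. Trypsinogens, amylases, kallikreins and elastases are families of near-identical genes, and probe sets may pick up signal from relatives, which was not tested.

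Between these extremes lay genes whose ADM signal differed from array to array. Cela1, elastase 1, read 9.84, 8.37 and 7.10 in ADM, against 13.29, 13.19 and 13.21 in adult cells (-4.79 ± 0.48, adjusted p = 4.93e-06). Klk1, a kallikrein, read 10.82, 8.97 and 7.10, against 12.90, 12.90 and 12.87. Sycn, syncollin of the granule membrane, read 10.41, 9.04 and 7.80, against 13.09, 13.10 and 13.14. Array 1 was the highest ADM array and array 3 the lowest for each of the 3 genes, and no ADM array reached an adult one. Of the 34 genes, 31 were highest on ADM array 1 and 25 were lowest on ADM array 3, whereas on adult arrays the highest value fell on array 1 for 15, array 2 for 5 and array 3 for 11, the rest being ties. The median of the 34 genes was 9.54, 8.20 and 7.10 on ADM arrays, against 12.38, 12.30 and 12.30 on adult arrays.

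The other proteases and lipases fell by intermediate amounts. Ctrl, a chymotrypsin-like protease, read 9.41, 8.02 and 6.89 in ADM, against 13.36, 13.30 and 13.28 in adult cells. The trypsinogen genes Prss1, Try5, Try4 and Prss2 fell by 4.24 ± 0.25, 3.63 ± 0.37, 2.66 ± 0.27 and 1.18 ± 0.19, and Prss3 was not called. Cel, the bile salt-dependent lipase, fell by 3.64 ± 0.18, and the pancreatic lipase relatives Pnliprp2 and Pnliprp1 by 3.0 ± 0.42 and 2.48 ± 0.42. Their cofactor colipase (Clps) read 11.60, 10.54 and 9.84 in ADM, against 12.74, 12.76 and 12.82. Array 1 was again the highest ADM array and array 3 the lowest for Ctrl, Pnliprp2, Pnliprp1 and Clps, with no overlap between the groups. The ribonuclease Rnase1, the amylase Amy1 and the carboxypeptidase Cpb1 fell by 3.8 ± 0.35, 3.40 ± 0.27 and 2.76 ± 0.41, and the nuclease Dnase1 was not called.

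Granule accessory genes included falls of over 7 units. Tmed11 and Tmed6, cargo receptor genes of the p24 family, fell by 7.85 ± 0.27 and 5.57 ± 0.33. Serpini2, a serpin, read 4.82, 3.70 and 3.70 in ADM, against 11.93, 11.86 and 11.85 in adult cells, and Zg16, a zymogen granule lectin, read 6.31, 5.88 and 5.23, against 12.42, 12.41 and 12.47. Gp2, the main granule membrane glycoprotein, fell by 4.82 ± 0.67 and the trypsin inhibitor Spink1 by 3.43 ± 0.40. Cuzd1 and Dmbt1, which carry CUB domains, fell by 4.33 ± 0.41 and 2.22 ± 0.43, and the calcium-binding nucleobindin Nucb2 by 1.26 ± 0.17. The exception was Fam3b, a secreted cytokine-like gene, at 5.78, 4.90 and 4.45 in ADM, against 2.95, 2.84 and 2.81 in adult cells, at least 2.68-fold higher.

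Promoters of 2 of these genes are shown because one changed and the other did not pass the test: Cela3b, an elastase, fell by 4.12 ± 0.34, and Ctrb1 was not called. Each window runs from 250 bases before to 50 bases after the gene start (RefSeq, mouse GRCm38.p6), 5′ to 3′ on the gene's strand. Capitals mark the E-box CANNTG and the letters TGGGA, the 2 parts of the element that the PTF1 complex of Ptf1a and Rbpjl binds, searched on both strands and free to overlap. Cela3b lies at chr4:137430471-137430770 on the minus strand and Ctrb1 at chr8:111690961-111691260 on the minus strand.
Cela3b: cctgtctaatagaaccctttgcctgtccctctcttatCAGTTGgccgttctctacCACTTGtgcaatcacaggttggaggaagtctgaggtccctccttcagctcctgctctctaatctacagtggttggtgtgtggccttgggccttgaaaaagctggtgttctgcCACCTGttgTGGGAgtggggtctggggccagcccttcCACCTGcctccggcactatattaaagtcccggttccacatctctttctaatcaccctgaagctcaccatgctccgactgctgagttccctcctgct
Ctrb1: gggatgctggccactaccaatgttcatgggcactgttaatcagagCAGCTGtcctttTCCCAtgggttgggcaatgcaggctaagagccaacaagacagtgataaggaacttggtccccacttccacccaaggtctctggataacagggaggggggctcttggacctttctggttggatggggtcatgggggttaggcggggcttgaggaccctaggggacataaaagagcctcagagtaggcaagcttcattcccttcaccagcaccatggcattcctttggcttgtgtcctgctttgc
The window held 4 E-boxes and 1 TGGGA in Cela3b, and 1 of each in Ctrb1. Both parts were present in 9 of 10 serine protease windows and in 16 of 26 windows of the 4 lists (61.5%), against 46.8% of the windows of all 16990 genes with one. The matches are letters in a window and not measured binding.

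Reg genes, which encode C-type lectins that acinar cells secrete after injury, were mostly not called. Reg1 read 12.55, 12.36 and 12.55 in ADM, against 12.98, 12.92 and 12.96 in adult cells. Reg3b read 12.49, 12.21 and 12.41, against 12.61, 12.40 and 12.46, so the groups overlapped. Reg3d alone fell, by 5.37 ± 0.56, while Reg2 and Reg3a stood at -0.91 ± 1.40 and -0.88 ± 1.04 with large SEs. Of these, Reg2 had ADM values of 11.29, 10.79 and 11.17, below all adult values of 12.06, 11.95 and 11.96. Reg3g, at 8.44, 7.75 and 7.18 in ADM, against 8.12, 8.02 and 7.0, overlapped, and Reg4 lay under background in both groups.

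Several hormone and plasma protein genes that adult acinar arrays showed fell to or near background. Gal, the galanin precursor, read 4.04, 3.97 and 3.89 in ADM, against 11.92, 11.96 and 11.94 in adult cells. Vtn, which encodes vitronectin, had a fold change of at least 153 downwards, and the hepcidin gene Hamp2 one of at least 118. Itih4, a protease inhibitor heavy chain, fell by 6.13 ± 0.57, and Fgf21, a stress hormone that the exocrine pancreas secretes, by 4.62 ± 0.53. Of the 16 genes in the list 6 fell and 2 rose, against 4.22% and 12.5% of all genes. The 2 were the acute-phase gene Serpina3n (2.01 ± 0.37) and the lipoprotein lipase inhibitor Angptl4 (3.32 ± 0.47).

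Large falls were also found outside enzymes and hormones. The zinc importer Slc39a5 read 4.03, 3.82 and 3.67 in ADM, against 9.98, 10.04 and 10.06 in adult cells. Sostdc1, a secreted antagonist of BMP and Wnt signals, fell by 6.06 ± 0.19 and Tent5c, a poly(A) polymerase, by 5.55 ± 0.21. The kallikreins Klk1b11 and Klk1b5 fell by 6.63 ± 0.42 and 6.13 ± 0.37, and Klk1b8 was at least 6.36-fold lower. Signal from relatives was not tested for these kallikreins either. Of genes at background on every ADM array, the GABA receptor subunit gene Gabra4 was at least 27.6-fold lower, Aass, of lysine breakdown, at least 23.4-fold, the methyltransferase-like Mettl7a3 at least 20.6-fold and the carboxylesterase Ces1e at least 8.77-fold. Rnf212, known from meiosis, and Eci3, of fatty acid oxidation, were at least 6.6-fold and 5.69-fold lower.

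Genes at background on every adult array gave the opposite picture. Tnfrsf23, a decoy receptor for the death ligand TRAIL in mice, read 9.46, 9.55 and 9.25 in ADM, against 3.32, 3.57 and 2.84 in adult cells, at least 55.7-fold higher. Gprc5a, an orphan receptor gene induced by retinoic acid, was at least 42.7-fold higher. Ctla2b, a cathepsin inhibitor relative, the BCL2 family gene Bcl2l15 and the collagen gene Col8a1 were at least 16-fold, 13.1-fold and 12.6-fold higher. For these 5 genes, lack of overlap between the groups follows from how they were picked.

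**Figure D2:**
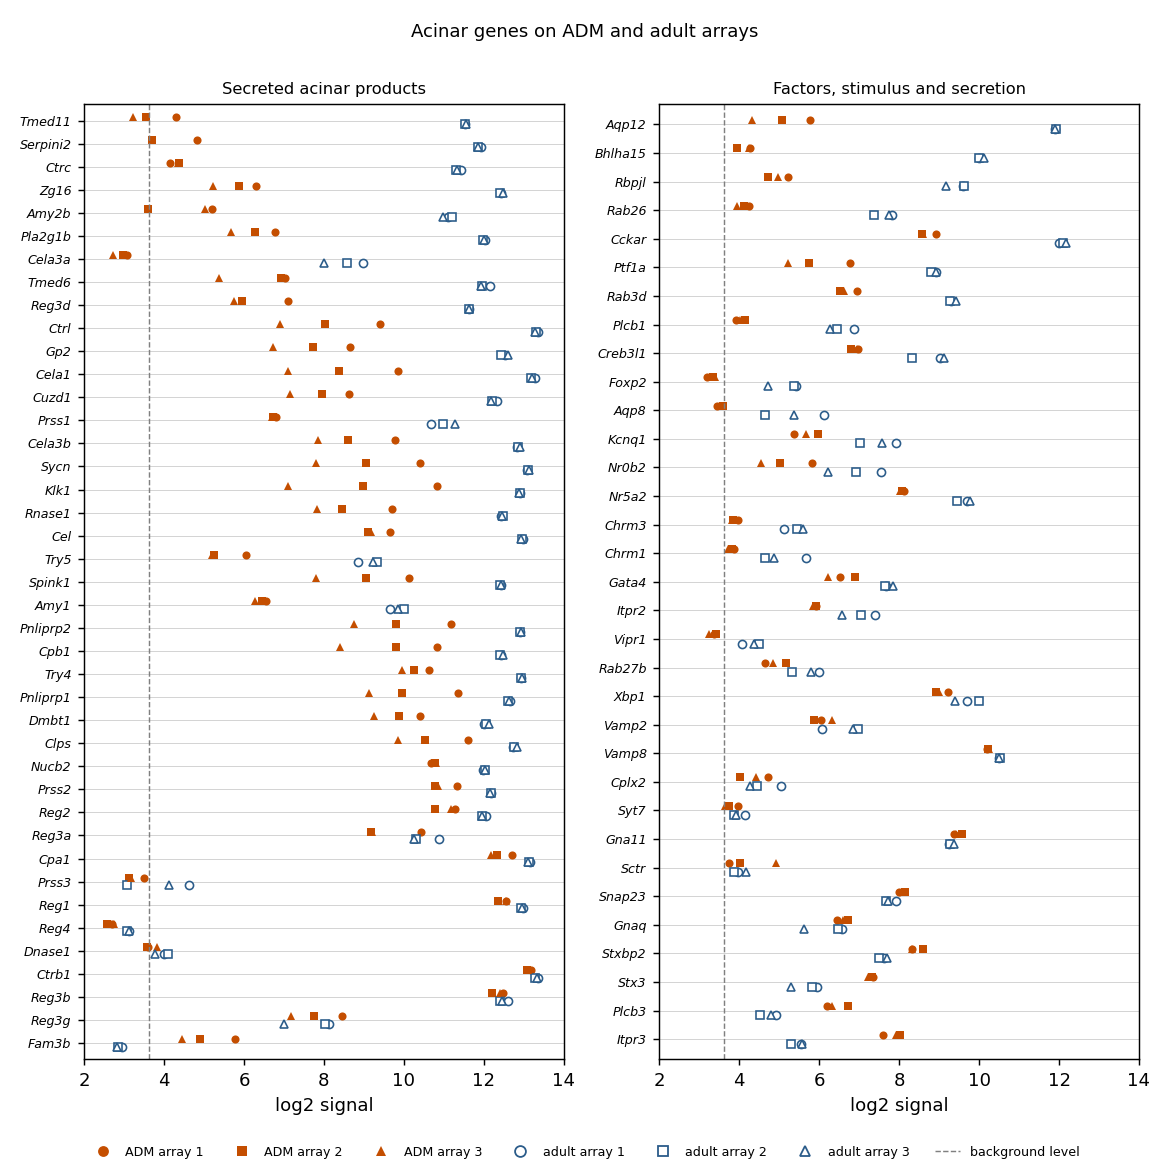
Log2 signal of secreted acinar products (left) and of acinar transcription factors with stimulus and secretion genes (right) on ADM arrays (filled orange, drawn above) and adult arrays (open blue, drawn below); circles, squares and triangles are arrays 1, 2 and 3, and the dashed line is the background level of 3.62. Ctrb1, Cpa1, Reg1 and Reg3b sit close together in both groups, whereas Klk1, Cela1 and Sycn spread over more than 2 units among ADM arrays and hardly at all among adult arrays.

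Transcription factors of the acinar program fell in 8 of 9 cases. Bhlha15, which scales up the secretory apparatus, read 4.28, 3.94 and 4.25 in ADM, against 10.01, 10 and 10.13 in adult cells. Rbpjl, the acinar-specific subunit of PTF1, read 5.21, 4.71 and 4.97, against 9.61, 9.62 and 9.17. Ptf1a read 6.78, 5.75 and 5.21, against 8.92, 8.80 and 8.92. Among these 3 genes, Ptf1a had the array order of the enzymes, with array 1 highest and array 3 lowest. Nr5a2 at -1.58 ± 0.23 and Gata4 at -1.18 ± 0.18 fell least, and Nr5a2 averaged 8.07 in ADM, against 3.61 in tumor cells. Creb3l1, an ER-anchored factor, and Nr0b2, a nuclear corepressor, fell by 1.92 ± 0.22 and 1.76 ± 0.35, and the forkhead gene Foxp2 was at least 2.92-fold lower. Xbp1, which drives ER expansion, was not called at -0.67 ± 0.26 (adjusted p = 0.0621).

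The precursors of microRNAs 216a and 217, which are known to be abundant in the pancreas, lie close together on chromosome 11. Mir216a read 2.57, 2.79 and 2.77 in ADM, against 4.66, 4.97 and 5.25 in adult cells (-2.25 ± 0.24, adjusted p = 8.67e-06). Mir217 was called lower but stayed at or near background, with 2.43, 2.40 and 2.42 in ADM, against 3.38, 3.68 and 3.43. Among 483 microRNA genes, 7 were called higher (1.45%) and 10 lower (2.07%), and these 2 were singled out after their values were seen. Their mature 5p sequences are shown with the seed, bases 2 to 8, in capitals (RefSeq, GRCm38.p6, chr11:28757018-28757039 and chr11:28763761-28763783, plus strand).
mmu-miR-216a-5p: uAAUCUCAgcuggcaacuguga
mmu-miR-217-5p: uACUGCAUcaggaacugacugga
The 2 seeds differ. The probe sets are named for the microRNA genes and do not measure the mature forms.

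Genes for receiving the secretory stimulus and releasing granules split. Of 24 measured, 10 fell and 3 rose, against 4.22% and 12.5% of all genes. Cckar, the cholecystokinin receptor, read 8.93, 8.57 and 8.59 in ADM, against 12, 12.09 and 12.17 in adult cells, a fall of 3.39 ± 0.22. The muscarinic receptors Chrm3 and Chrm1 fell by 1.51 ± 0.16 and 1.24 ± 0.22. Aqp12, an acinar water channel gene, read 5.77, 5.07 and 4.33, against 11.91, 11.92 and 11.89. Rab3d and Rab26, small GTPases of granules, fell by 2.63 ± 0.25 and 3.55 ± 0.20. The genes that rose belong to calcium release and apical fusion: Itpr3, an inositol trisphosphate receptor (2.38 ± 0.22), the phospholipase Plcb3 (1.66 ± 0.22) and the syntaxin Stx3 (1.62 ± 0.24). Their relatives went the other way, with Itpr2 at -1.10 ± 0.29 and Plcb1 at -2.52 ± 0.24, all 5 called. Vamp8, the granule SNARE, was not called (-0.30 ± 0.15). Cck, which encodes the ligand of Cckar, read 10.40, 9.91 and 10.61 in ADM, against 3.81, 4.13 and 4.46, a rise of 6.17 ± 0.38.

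Translocation, folding and degradation genes of the ER fell in 20 of 33 cases, and none rose. Derl3, part of the channel for ER-associated degradation, read 4.54, 4.20 and 4.13 in ADM, against 9.73, 9.52 and 9.66 in adult cells, a 40.7-fold fall. Ero1b, an oxidase that supplies disulfide bonds in secretory cells, read 6.64, 6.07 and 6.06, against 11.53, 11.37 and 11.36. Erp27, a pancreatic protein disulfide isomerase relative, fell by 4.86 ± 0.40 and the chaperone cofactor Sdf2l1 by 3.27 ± 0.20. More widely used folding genes were not called. Pdia3 stood at 0.04 ± 0.20, Hsp90b1 at -0.43 ± 0.14 and Ero1a, the widely expressed oxidase, at 0.81 ± 0.22. Hspa5, the central ER chaperone, was called at -1.03 ± 0.18, close to the size threshold, and stood at -1.0 and uncalled under quantile normalization.

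The ER stress response element, bound by ATF6 with NF-Y and read here as CCAAT, any 9 bases and then CCACG, was searched on both strands of the same kind of window. It was present in 8 of 25 ER list windows (32.0%), against 0.171% of all windows. That share describes the list and not the ADM response. The windows of the 2 genes with the largest falls are shown, with the element in capitals, at chr10:75893148-75893447 on the plus strand for Derl3 and chr13:12565633-12565932 on the plus strand for Ero1b (RefSeq, GRCm38.p6).
Derl3: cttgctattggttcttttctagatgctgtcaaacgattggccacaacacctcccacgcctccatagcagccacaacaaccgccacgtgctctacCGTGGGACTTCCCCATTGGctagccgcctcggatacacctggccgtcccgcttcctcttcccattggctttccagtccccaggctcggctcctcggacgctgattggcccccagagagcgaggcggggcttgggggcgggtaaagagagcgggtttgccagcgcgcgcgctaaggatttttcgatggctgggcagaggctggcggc
Ero1b: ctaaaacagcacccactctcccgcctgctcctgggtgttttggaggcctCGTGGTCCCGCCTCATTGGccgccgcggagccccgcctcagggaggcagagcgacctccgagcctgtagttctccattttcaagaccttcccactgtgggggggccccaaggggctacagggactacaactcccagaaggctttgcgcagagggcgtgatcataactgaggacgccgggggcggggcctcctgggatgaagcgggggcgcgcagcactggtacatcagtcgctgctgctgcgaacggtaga
In both genes the element lies on the opposite strand, and the capitals are its reverse complement.

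Genes of amino acid uptake and synthesis were lower in 15 of 25 cases and higher in 1. Slc38a5, a glutamine and glycine carrier, read 3.72, 3.16 and 2.90 in ADM, against 10.16, 10.11 and 9.81 in adult cells, at least 84.8-fold lower. Gnmt, glycine N-methyltransferase, fell by 6.09 ± 0.20 and Gatm, the first enzyme of creatine synthesis, by 4.15 ± 0.33. Both genes use glycine, and no ADM array overlapped an adult one for either, as for 24.7% of all genes in this direction. For Gnmt, which is among the extreme genes, this was required. Cystathionine genes Cth and Cbs fell by 3.09 ± 0.29 and 2.98 ± 0.37, and the essential amino acid carrier Slc7a5 by 2.13 ± 0.23. Atf4, the factor that controls many genes of the list, missed the size threshold at -0.62 ± 0.17. Sesn2, a leucine sensor, rose by 1.30 ± 0.29, and 2 genes were higher without ADM array 3.

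Several lists differed among the ADM arrays themselves. Mitosis genes had their lowest ADM value on array 2 in 26 of 26 cases, and DNA replication genes in 20 of 25. Fibrillar matrix genes were lowest on that array in 18 of 23 cases and markers of fibroblasts and stellate cells in 15 of 20, whereas glycolysis genes were highest there in 16 of 23. The median fibrillar matrix signal was 7.71, 6.61 and 7.95 in ADM, against 4.52, 4.43 and 4.48 in adult cells, so array 2 stayed above every adult array. Mitosis medians were 6.79, 6.08 and 6.57, against 4.21, 4.04 and 4.23. The part that the mix of cells on each array had in these differences was not tested.

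**Figure D3:**
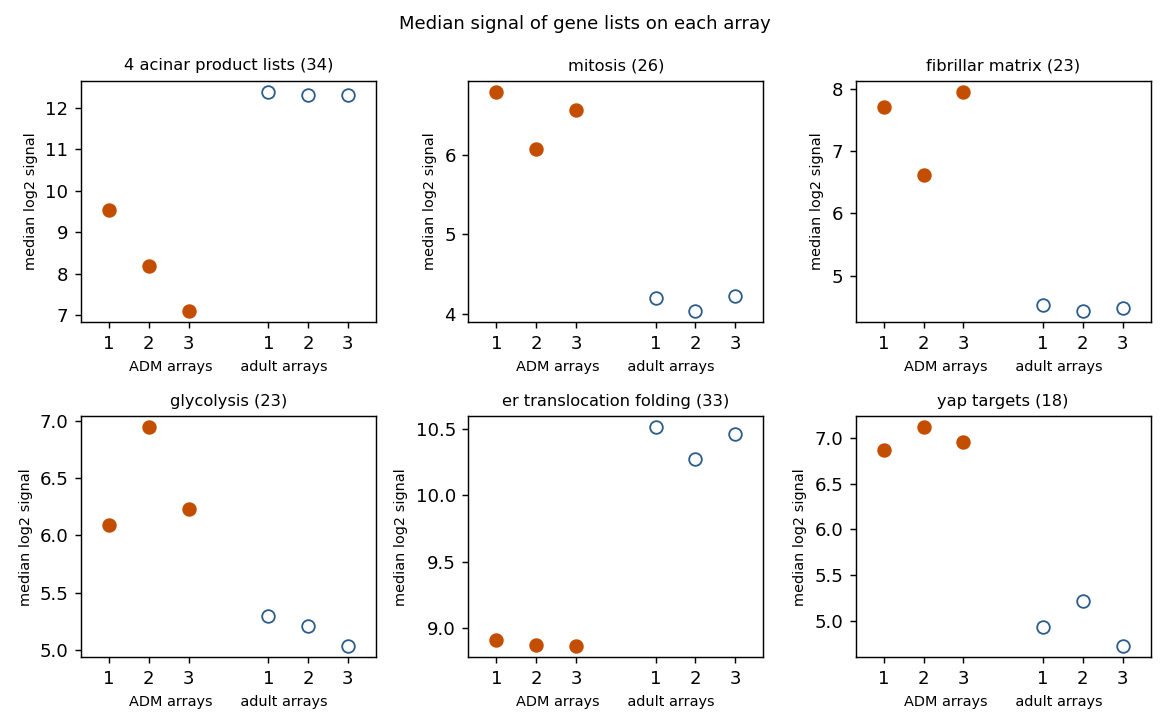
Median log2 signal of 6 gene lists on each of the 3 ADM arrays (filled orange, left) and 3 adult arrays (open blue, right); the number of genes is in brackets. Acinar products descend over ADM arrays 1, 2 and 3 (9.54, 8.20 and 7.10), and the mitosis and fibrillar matrix medians dip on ADM array 2, with no ADM median of these 2 lists as low as an adult one.

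Simple-epithelial keratins rose in ADM, and 5 of 11 keratin genes in all. Krt19 read 10.01, 10.32 and 10.04 in ADM, against 6.91, 6.85 and 7.01 in adult cells. Krt7, a duct keratin, rose by 3.75 ± 0.14, and Krt20, a keratin of gastrointestinal surface cells, read 10.63, 11.41 and 10.90, against 3.34, 5.20 and 4.51. Their partners Krt8 and Krt18, which acinar cells already express, rose by 1.86 ± 0.15 and 1.20 ± 0.17. Krt23, Krt17 and Krt80 were not called. The stratified keratins Krt6a, Krt14 and Krt16 stayed at or near background, and Trp63, the master factor of stratified epithelium, read 2.97, 3.09 and 3.11, against 3.65, 3.65 and 3.19.

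Cell surface genes of ducts and pancreatic cancers rose in 10 of 16 cases, and none fell. Msln, mesothelin, read 10.58, 10.66 and 10.33 in ADM, against 4.22, 4.23 and 4.14 in adult cells. Psca, prostate stem cell antigen, read 9.86, 9.68 and 8.31, against 2.76, 2.85 and 3.30, at least 50.6-fold higher. The tetraspanins Tspan8 and Tspan1 rose by 6.55 ± 0.31 and 2.67 ± 0.35, and Cd44, the hyaluronan receptor, by 3.98 ± 0.24. The groups did not overlap for any of these 5 genes, as for 25.1% of all genes in this direction. Msln, Psca and Tspan8 are also among the extreme genes, for which that was required. Muc1 at -0.22 ± 0.44, Cd24a at 0.03 ± 0.13 and Ceacam1 at -0.52 ± 0.43 were not called.

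Claudins, which set the ion selectivity of tight junctions, were exchanged. Cldn8 read 3.08, 3.54 and 3.58 in ADM, against 6.74, 7.23 and 7.45 in adult cells, at least 11.5-fold lower, and Cldn10 fell by 3.07 ± 0.26. In the other direction, Cldn4 read 10.25, 10.56 and 10.69, against 3.77, 4.24 and 3.17, and Cldn6 read 9.25, 9.58 and 9.56, against 4.47, 3.89 and 3.79. Cldn7, Cldn2 and Cldn18 rose as well, by 1.97 ± 0.29, 2.15 ± 0.33 and 1.20 ± 0.23. The scaffold Tjp1 (1.97 ± 0.22), occludin (Ocln, 1.87 ± 0.16) and cingulin (Cgn, 2.09 ± 0.41) rose with them. In all, 11 of 21 junction genes rose and 2 fell. Cldn3 and Cldn1 were not called.

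Ion and water transport genes showed a similar exchange, with 10 of 18 higher and 3 lower. Cftr, the chloride and bicarbonate channel of pancreatic ducts, read 6.90, 6.22 and 6.61 in ADM, against 3.05, 2.97 and 3.29 in adult cells, at least 7.76-fold higher. Slc4a4, the basolateral bicarbonate importer, read 7.93, 8.73 and 8.47, against 5.11, 5.71 and 4.90. Car2, a duct carbonic anhydrase, was at least 7.34-fold higher. These 3 genes serve bicarbonate secretion. Car9, a carbonic anhydrase induced by hypoxia, rose by 4.49 ± 0.33, and Scnn1a, a sodium channel subunit, by 3.73 ± 0.24. Slc26a6, the apical chloride and bicarbonate exchanger, fell by 2.23 ± 0.24, and Aqp1, a duct water channel, and Car4 were at least 1.99-fold and 2.28-fold lower. Slc4a11, a transporter of the same bicarbonate family, read 9.34, 9.63 and 9.53, against 3.71, 3.59 and 3.68.

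Gastric-type genes were called in both directions. Of 22 measured, 9 rose and 3 fell. Tff1, the pit cell trefoil, rose by 7.07 ± 0.33 and the aspartic protease Ctse read 11.48, 11.57 and 11.62, against 3.29, 3.64 and 4.54 in adult cells. Muc5ac, the pit cell mucin, read 10.07, 10.25 and 7.31 in ADM, against 3.16, 3.20 and 3.34, at least 48.1-fold higher, with array 3 well below the other ADM arrays. Array 3 was also the lowest ADM array for the gastrokines. Gkn1 read 6.75, 5.85 and 3.91 in ADM, against 3.74, 3.81 and 4.14, so that this array lay among the adult values, and the gene was called at 1.61 ± 0.49. Gkn2 read 7.03, 6.13 and 3.57 in ADM, against 4.05, 3.59 and 4.99, with array 3 below every adult value, and was not called. Tff2, a trefoil of mucous neck cells that adult acinar arrays also showed, read 9.67, 8.44 and 8.38, against 12.83, 12.81 and 12.95. Gcnt3, a glycosyltransferase that branches mucin sugars, read 9.68, 10.36 and 9.49, against 3.75, 3.58 and 4.22. Agr2, a disulfide isomerase for mucins, was at least 5.08-fold lower and the secretory factor Spdef fell by 1.26 ± 0.33. The gland genes Muc6 and Pgc stayed under background in both groups, as did Sox2.

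**Figure D4:**
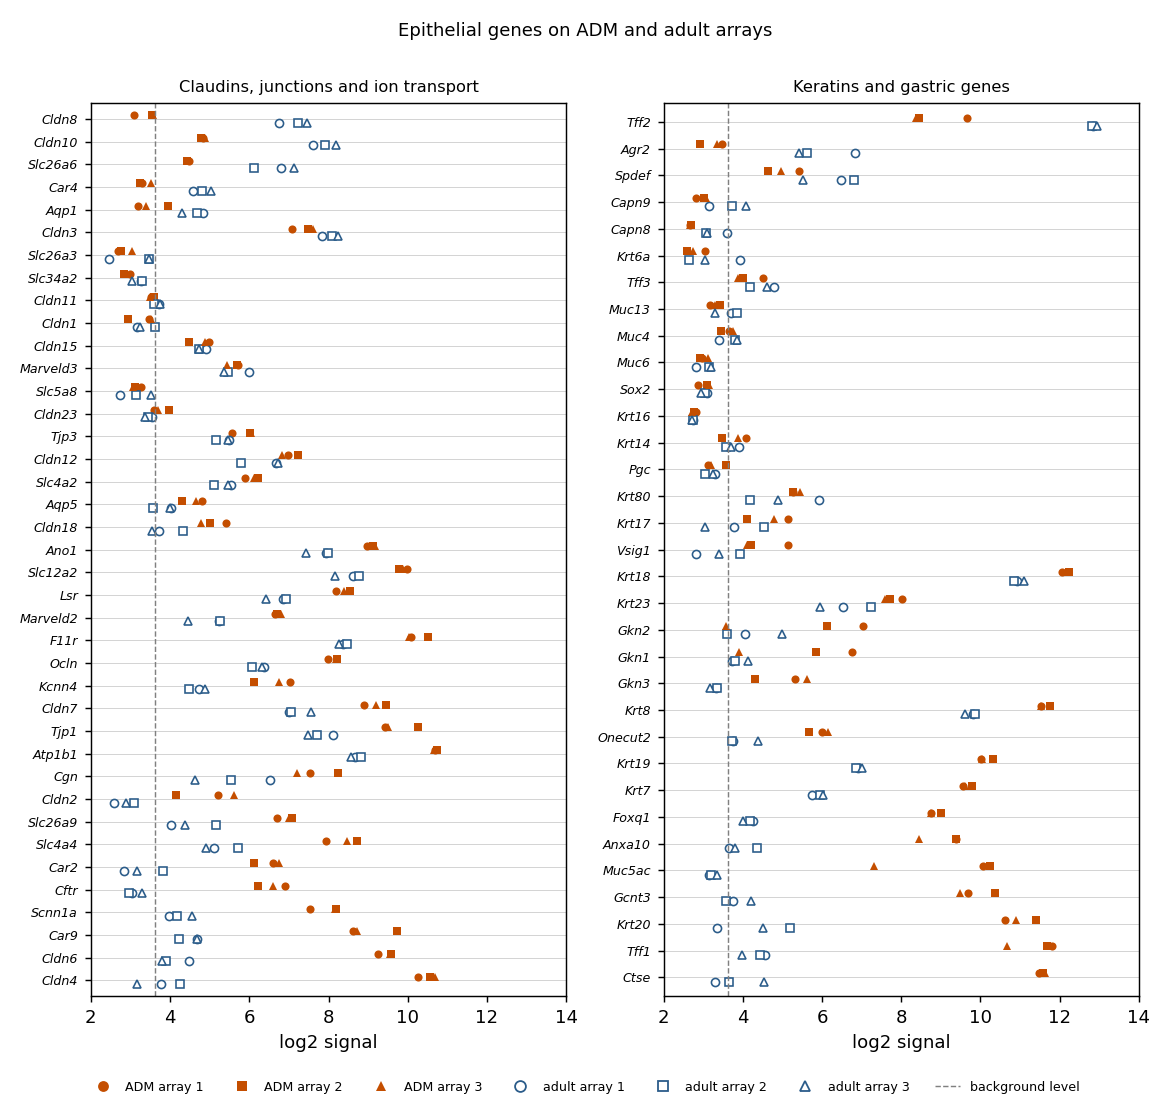
Log2 signal of claudin, junction and ion transport genes (left) and of keratin and gastric genes (right) on ADM arrays (filled orange, drawn above) and adult arrays (open blue, drawn below), with arrays 1, 2 and 3 as circles, squares and triangles and background dashed. Cldn8 lies at background in ADM only, Cldn4 and Cldn6 near it in adult cells only, and the ADM triangle of Muc5ac and of Gkn2 lies left of the other ADM points.

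Cornified envelope genes rose selectively, in 6 of 23 cases with 1 lower, against 12.5% and 4.22% of all genes. None was lower when any of the 3 ADM arrays or adult array 2 or 3 was left out. Sprr1a read 11.61, 11.81 and 11.20 in ADM, against 3.66, 3.90 and 3.88 in adult cells, a 212-fold difference. Ivl, involucrin, read 10.35, 10.81 and 10.05, against 3.47, 4.27 and 4.26. Sprr2f was uneven, with 4.56, 9.07 and 5.08, against 2.87, 3.47 and 2.88. Sprr3, Sprr1b and the desmoglein Dsg3 were not called, nor were the desmosome genes Dsp, Jup and Dsg2.

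Factors linked to injury and dedifferentiation rose in 18 of 27 cases, and none fell. Sox4 read 9.78, 9.98 and 9.96 in ADM, against 6.55, 6.57 and 6.33 in adult cells. The Krüppel-like factor Klf5 rose by 2.85 ± 0.20, the ETS factor Elf3 by 2.59 ± 0.26, the architectural factor Hmga2 by 2.47 ± 0.23 and Runx1 by 2.27 ± 0.22. Bcl3, a nuclear partner of NF-kappaB, rose by 2.24 ± 0.32. Myc at 0.69 ± 0.17 and Stat3 at 0.92 ± 0.22 missed the size threshold.

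Progenitor and duct factors did not follow. Among 17 measured, 1 rose and 2 fell, against 12.5% and 4.22% of all genes. Tcf7l2 rose by 1.13 ± 0.23, and this call was lost under quantile normalization, loess and housekeeping centring, while Foxa3 and Nkx2-2 fell. Without ADM array 2 no gene of the list was higher and 1 was lower, and without ADM array 3 there were 2 higher. Sox9, which marks duct cells and progenitors, read 7.86, 7.65 and 7.71 in ADM, against 8.37, 8.21 and 8.33 in adult cells, a difference of -0.56 ± 0.44 (adjusted p = 0.337). Its groups did not overlap, and that SE came from the pooled fit, since the SD was 0.108 in ADM and 0.083 in adult cells. Hnf4a stood at 0.92 ± 0.20, Gata6 at 0.56 ± 0.19 and Hes1 at 0.87 ± 0.45, none called. The list median was 0.08 and turned to -0.03, -0.13 and -0.30 under those 3 scalings.

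Epithelial and mesenchymal adhesion genes rose together. The epithelial cadherin Cdh1 read 10.93, 11.15 and 11.07 in ADM, against 9.64, 9.50 and 9.45 in adult cells. Vim, vimentin, read 10.42, 9.82 and 10.68, against 8.09, 8.32 and 8.24. Cdh11, the osteoblast cadherin, rose by 4.10 ± 0.36, the mesenchymal factor Prrx1 by 3.58 ± 0.33 and Snai2 by 2.28 ± 0.34. Each of these 3 genes and Vim had its lowest ADM value on array 2, as the fibroblast markers did, and Cdh1 its highest. The part of other cells in this was not tested. Esrp1 and Esrp2, splicing factors of epithelia, and Ovol1 and Ovol2 were not called.

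Genes of EGF ligands, their receptors and regulators were mostly higher. Of 17 measured, 12 rose and 1 fell, and 9 rose under each of quantile normalization, loess and housekeeping centring. Egf itself, which adult acinar cells express, read 3.32, 3.54 and 3.04 in ADM, against 7.58, 7.82 and 7.76, at least 17.1-fold lower. Ereg, epiregulin, read 9.03, 8.69 and 9.07, against 4.12, 3.40 and 3.84, and Hbegf rose by 3.61 ± 0.25. Tgfa, the gene of the added ligand, read 5.17, 6.06 and 5.43, against 3.61, 3.85 and 4.32. Btc and Nrg1 rose by 1.44 ± 0.33 and 1.51 ± 0.51, while Epgn and Nrg4 stayed at or near background and were not called. Among receptors, Egfr read 9.11, 9.31 and 9.47, against 5.84, 6.76 and 6.25, an 8.07-fold rise. Erbb2 rose by 2.69 ± 0.20 and Erbb3 by 1.95 ± 0.32, while Erbb4 lay at or near background in both groups. Errfi1, an inducible inhibitor of the receptor kinase, rose by 2.35 ± 0.18, Lrig3, a regulator of ERBB receptors, by 1.47 ± 0.22, and Lrig1 was not called. The sheddases Adam17 and Adam10, which release the ligands, rose by 1.20 ± 0.16 and 1.05 ± 0.20. These 2 calls and that of Nrg1 were lost under quantile normalization.

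Feedback genes of the RAS and MAPK pathway rose in 14 of 19 cases, and none fell. Ier3 read 11.12, 11.19 and 10.96 in ADM, against 7.18, 6.64 and 7.05 in adult cells. The phosphatases Dusp10, Dusp4 and Dusp6, which remove phosphate from MAP kinases, were at least 8.28-fold higher, 3.14 ± 0.28 higher on the log2 scale and 2.10 ± 0.23 higher. Spred1, Spry2 and Spred2, inhibitors of RAS activation, rose by 2.77 ± 0.21, 2.67 ± 0.23 and 2.20 ± 0.21. Dusp2, Dusp7, Dusp14, Spry1 and Rasal1 were not called.

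Immediate early genes, which are transcribed within minutes of a stimulus and also during tissue digestion, mostly did not differ detectably. Only 4 of 20 genes of that list were called higher, against 12.5% of all genes. The list median of 0.12 turned negative under quantile normalization, loess and housekeeping centring. Fos read 7.15, 7.48 and 7.32 in ADM, against 7.57, 7.12 and 7.10 in adult cells. Egr1 read 9.30, 9.35 and 9.18, against 9.16, 9.20 and 9.27. Both pairs of groups overlapped. The SEs of 0.73 for Fos and 0.71 for Egr1 come from the fit over 4 groups and are far wider than the spread of these 6 arrays. Egr2 rose by 2.05 ± 0.57, Dusp1 by 1.37 ± 0.44 and the inducible heat shock genes Hspa1b and Hspa1a by 2.62 ± 0.25 and 1.76 ± 0.28. Ier2 stood at -1.15 ± 0.46 (adjusted p = 0.0682), with all ADM arrays below all adult arrays, as for 24.7% of all genes. Jun, Junb, Jund, Fosb, Atf3, Egr3, Nr4a1, Klf2, Btg2, Zfp36, Socs3, Dnajb1 and Hspb1 were not called.

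Targets and partners of YAP, a coactivator that enters the nucleus when cells spread on a stiff matrix and works with TEAD factors, rose in 15 of 18 cases. The count was 12 under quantile normalization and loess and 11 under housekeeping centring, with none lower. Ankrd1 read 9.15, 9 and 9.51 in ADM, against 3.51, 3.69 and 3.63 in adult cells, at least 48.5-fold higher. Ccn2, connective tissue growth factor, read 10.96, 11.09 and 11.19, against 4.85, 6.22 and 5.39, and F3, tissue factor, rose by 5.11 ± 0.31. Of the coactivators, Wwtr1 (TAZ) rose by 2.73 ± 0.21 and Yap1 stood at -0.06 ± 0.16. Ajuba, an inhibitor of the upstream kinases, rose by 3.84 ± 0.27.

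The core of the TEAD motif, GGAATG, was present on either strand in 10 of 12 windows of this list (83.3%), against 15.4% of all windows. Ankrd1 is shown as a widely used target, at chr19:36119795-36120094 on the minus strand (RefSeq, GRCm38.p6), with 2 matches in capitals.
Ankrd1: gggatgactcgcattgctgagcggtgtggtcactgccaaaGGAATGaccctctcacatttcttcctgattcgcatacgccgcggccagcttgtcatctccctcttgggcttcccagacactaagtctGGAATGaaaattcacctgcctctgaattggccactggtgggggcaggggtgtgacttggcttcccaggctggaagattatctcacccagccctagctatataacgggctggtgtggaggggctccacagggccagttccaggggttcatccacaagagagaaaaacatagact
The list was compiled from known targets, so this share describes the list and not the ADM response.

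In the TGF-beta family, 13 of 24 genes rose and 1 fell. Thbs1, thrombospondin 1, which can activate latent TGF-beta, read 10.34, 10.32 and 10.83 in ADM, against 4.22, 5.15 and 4.81 in adult cells. Inhba, the activin A subunit, read 8.99, 8.65 and 9.58, against 2.76, 4.67 and 4.85. Receptors Tgfbr1 and Tgfbr2 rose by 3.45 ± 0.16 and 2.15 ± 0.17, the ligand Tgfb1 by 2.97 ± 0.29 and the inhibitory Smad7 by 2.08 ± 0.15. Bmp7 fell by 2.91 ± 0.24, and Tgfb2, Bmp4 and Tgfbi were not called.

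Of 14 prostaglandin genes 5 rose and 1 fell, with those of the first steps of synthesis higher. Ptgs2, the inducible cyclooxygenase, read 11.28, 11.37 and 11.24 in ADM, against 3.14, 3.70 and 3.77 in adult cells. Pla2g4a, the phospholipase that frees its substrate, was at least 34.5-fold higher, and Abcc4, an efflux carrier for prostaglandins, at least 12-fold higher. Downstream, the E synthase Ptges stood at 0.84 ± 0.22 and the receptors Ptger2 and Ptger4 at -0.05 ± 0.15 and -0.12 ± 0.22. Ptger3, a receptor, read 6.36, 5.40 and 6.33, against 9.48, 9.47 and 9.46, a fall of 3.44 ± 0.42.

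**Figure D5:**
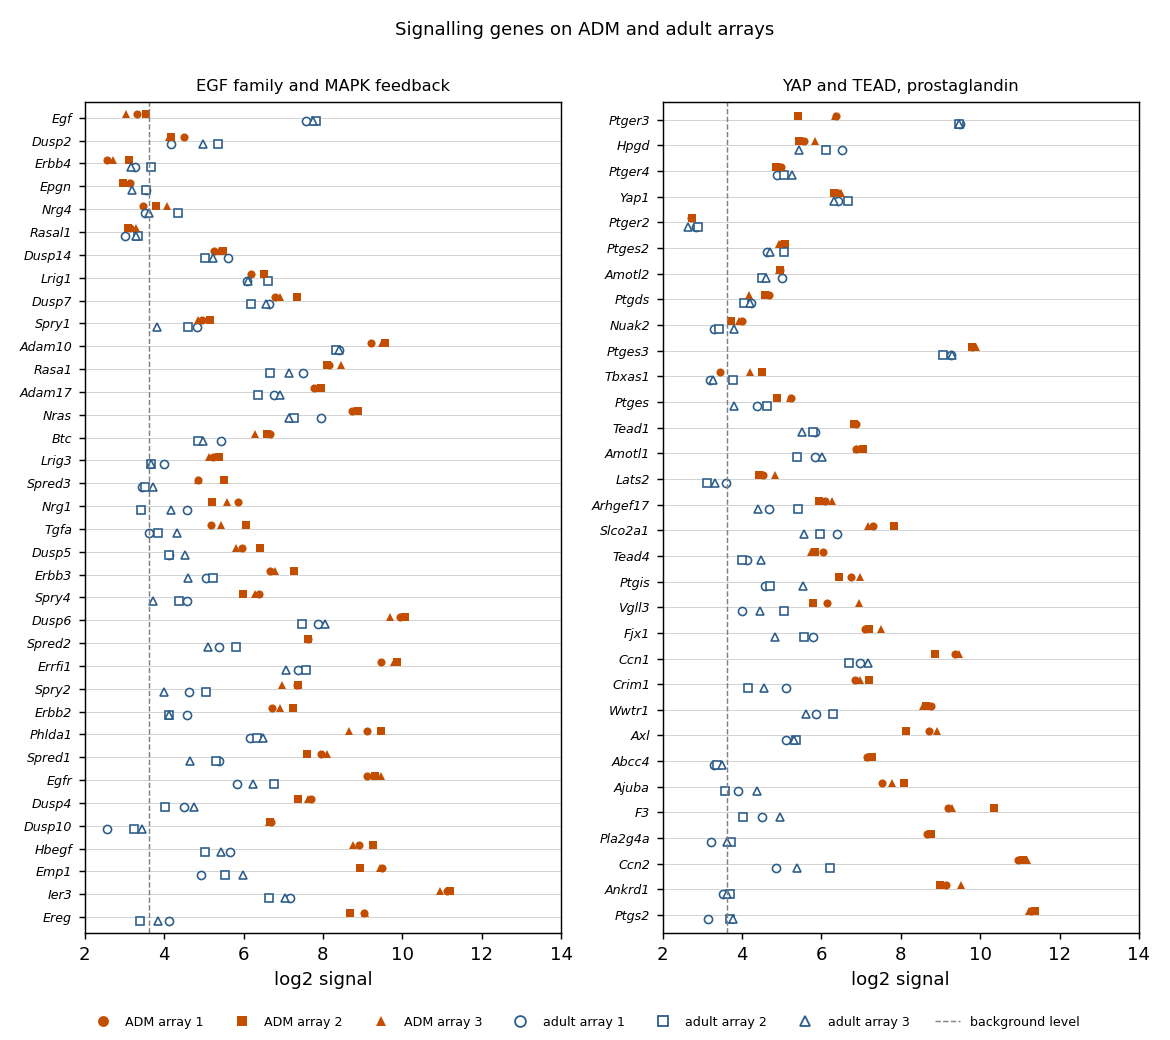
Log2 signal of EGF family and MAPK feedback genes (left) and of YAP, TEAD and prostaglandin genes (right) on ADM arrays (filled orange, drawn above) and adult arrays (open blue, drawn below), with arrays 1, 2 and 3 as circles, squares and triangles and background dashed. Egf and Ptger3 lie lower in ADM, while Ereg, Ier3, Ccn2, Ankrd1, Pla2g4a and Ptgs2 lie at least 3 units higher on every ADM array than on any adult one.

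Of 35 cytokine and chemokine genes, 18 rose and 1 fell. Lcn2, lipocalin 2, rose by 5.13 ± 0.76. The monocyte chemokine Ccl2 read 8.46, 7.69 and 8.74 in ADM, against 4.12, 3.20 and 3.63 in adult cells, and the macrophage growth factor Csf1 rose by 4.32 ± 0.39. Cxcl16 and the interleukin receptor gene Il4ra rose by 4.18 ± 0.24 and 4.14 ± 0.22. Of the IL-6 family, Lif rose by 3.61 ± 0.21 and Il11 was at least 8.45-fold higher, whereas Il6 was not called (3.76, 3.54 and 3.33 in ADM, against 2.92, 2.97 and 2.89). Il1a, Il1b and Tnf were not called, and Il6ra fell by 1.46 ± 0.15. Without adult array 3, 2 genes were lower.

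Notch, Wnt and Hedgehog genes were mostly not called, with 5 of 30 higher and 1 lower, against 12.5% and 4.22% of all genes. The list median was -0.01, and it was 0.10 under quantile normalization and -0.39 under housekeeping centring. Wnt7a and Notch2 rose by 2.31 ± 0.27 and 2.17 ± 0.27 and the Notch ligand Jag1 by 1.47 ± 0.22. Lfng, a modifier of Notch receptors, fell by 1.51 ± 0.20. Notch1, Nrarp, Axin2 and Gli1 were not called.

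Matrix metalloproteinases and their inhibitors rose in 14 of 19 cases, with 10 to 14 when single arrays were left out and 11 under loess and housekeeping centring. Mmp7, matrilysin, a protease of metaplastic pancreas and of injured epithelia, read 11.50, 11.27 and 11.59 in ADM, against 4.58, 4.24 and 4.92 in adult cells. Mmp14, the membrane collagenase, read 10.09, 9.65 and 10.17, against 5.33, 4.22 and 5.22. Timp1, which inhibits most of these enzymes, rose by 7.13 ± 0.31. Mmp3 was at least 15.9-fold higher, while Mmp9 at 0.67 ± 0.22 was not called. Of the 19 genes, 16 had their lowest ADM value on array 2.

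The AP-1 motif TGANTCA, bound by Fos and Jun dimers, was present on either strand in 5 of 15 windows of this list (33.3%), against 8.42% of all windows and 1 of 15 windows of the MAPK feedback list. Windows of all genes called higher in ADM held it in 7.52% of cases. The list share describes the list and not the ADM response. Mmp7 is shown, with the match in capitals, at chr9:7691840-7692139 on the plus strand (RefSeq, GRCm38.p6), the first of 2 windows listed for it.
Mmp7: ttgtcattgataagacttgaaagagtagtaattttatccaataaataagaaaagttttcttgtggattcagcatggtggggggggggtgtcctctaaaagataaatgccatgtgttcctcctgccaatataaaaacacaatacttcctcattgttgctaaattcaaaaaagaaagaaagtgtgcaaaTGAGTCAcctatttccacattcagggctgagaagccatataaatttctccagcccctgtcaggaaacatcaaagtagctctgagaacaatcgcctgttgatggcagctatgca
Fos and Jun themselves were not called, while the Fos relative Fosl2 rose by 1.88 ± 0.24. The motif gives no measure of binding by any of them.

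Of 13 plasminogen activation genes, 9 rose and 1 fell. Plat, tissue plasminogen activator, read 10.13, 10.82 and 9.81 in ADM, against 4.73, 4.74 and 4.84 in adult cells. The urokinase receptor Plaur rose by 5.37 ± 0.19, and the cell surface plasminogen receptor pair Anxa2 and S100a10 by 4.27 ± 0.18 and 3.33 ± 0.18. Serpinb5, maspin, was at least 5.06-fold higher. Plg, plasminogen itself, lay under background in both groups, and Serpinb1a, an inhibitor of neutrophil proteases, fell by 1.49 ± 0.20.

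Fibrillar matrix genes rose in 19 of 23 cases, and none fell. Fn1, fibronectin, read 10.28, 10.10 and 10.79 in ADM, against 4.52, 3.92 and 4.21 in adult cells. Tnc, tenascin C, read 10.29, 8.69 and 10.22, against 3.99, 4.43 and 3.62. The crosslinkers Lox and Plod2 rose, Lox by 5.94 ± 0.22 and Plod2 at least 29.0-fold. Among collagens, Col1a1 rose by 3.77 ± 0.29, Col12a1 was at least 12.6-fold higher and Col6a1 read 8.09, 5.91 and 7.74, against 5.76, 5.86 and 5.12, so its ADM array 2 lay just above the highest adult value. Col18a1, Col16a1 and Col6a2 were not called. The median of the 20 fibroblast and stellate markers was 6.22, 5.04 and 6.01 in ADM, against 4.56, 4.35 and 4.46, with the same array lowest, and its part in these results was not tested.

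Receptors for this matrix rose in 11 of 16 cases, and none fell. Itga2, a collagen receptor subunit, read 10.23, 10.77 and 10.23 in ADM, against 3.26, 4.49 and 3.59 in adult cells, a 99.0-fold difference. The laminin receptor subunit Itga3 rose by 4.23 ± 0.23, the fibronectin receptor subunit Itga5 by 4.55 ± 0.35 and Itgav by 3.17 ± 0.25. Itgb6, an epithelial subunit that activates TGF-beta, was at least 8.35-fold higher. Itga6 and Itga1 were not called.

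Of 19 laminin and other basement membrane genes, 11 rose and 1 fell. Lamb1 read 8.70, 9.01 and 8.82 in ADM, against 4.57, 5.05 and 4.77 in adult cells. The linker Nid1 rose by 2.99 ± 0.28, agrin (Agrn) by 2.58 ± 0.25 and the epithelial chain Lama3 by 2.51 ± 0.19. Lama1, the embryonic chain, lay under background in both groups, and Col7a1 fell by 1.08 ± 0.30.

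Actin cytoskeleton genes rose in 23 of 31 cases, and none fell. Flna, filamin A, read 9.29, 9.34 and 9.56 in ADM, against 4.90, 4.55 and 4.34 in adult cells. Cnn2, a calponin, read 8.10, 8.25 and 8.58, against 3.80, 3.58 and 3.50. The membrane linkers Msn and Ezr rose by 4.67 ± 0.29 and 4.08 ± 0.24, while their relative Rdx stood at -0.17 ± 0.18. Vcl, vinculin of focal adhesions, rose by 3.60 ± 0.19 and smooth muscle actin (Acta2) by 3.80 ± 0.38, and Actg2 was not called.

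Annexins and S100 calcium-binding proteins rose in 11 of 18 cases, and none fell. Anxa3 read 10.46, 10.50 and 10.51 in ADM, against 3.43, 3.63 and 5.16 in adult cells. Anxa1 rose by 5.34 ± 0.25, S100a4 by 5.07 ± 0.26 and S100a14 by 4.71 ± 0.39. S100b, S100a1 and S100a16 were not called.

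Mitosis genes rose in 26 of 26 cases with a median of 2.20. Under quantile normalization, loess and housekeeping centring 25 rose. Cdk1, the kinase that starts mitosis, read 8.76, 8.10 and 8.58 in ADM, against 3.71, 3.83 and 5.04 in adult cells. The cyclins Ccna2 and Ccnb2 rose by 3.69 ± 0.31 and 3.64 ± 0.26, Birc5, survivin, by 3.52 ± 0.40 and Mki67 by 1.98 ± 0.31. Of the 26 genes, 2 were lower in ADM than in embryonic cells and 26 were lower than in tumor cells, where 4.91% and 3.28% of all genes were called lower.

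The cell cycle homology element TTTGAA, through which the DREAM complex represses mitosis genes in resting cells, was present on either strand in 15 of 21 windows of the list (71.4%), against 17.8% of all windows. Cdk1 is shown, with both matches in capitals, at chr10:69352863-69353162 on the minus strand (RefSeq, GRCm38.p6).
Cdk1: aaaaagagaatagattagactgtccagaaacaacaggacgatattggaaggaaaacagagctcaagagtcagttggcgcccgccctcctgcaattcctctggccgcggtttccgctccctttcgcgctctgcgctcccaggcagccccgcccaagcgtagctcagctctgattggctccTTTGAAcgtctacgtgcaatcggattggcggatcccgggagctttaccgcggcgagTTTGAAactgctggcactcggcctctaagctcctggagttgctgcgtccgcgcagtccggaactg
As for the YAP targets, such genes are known to carry the element, and the share says nothing of ADM.

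DNA replication genes rose in 20 of 25 cases, and none fell. Mcm6, of the replicative helicase, read 8.17, 8.42 and 8.24 in ADM, against 4.32, 4.18 and 4.31 in adult cells. Lig1, DNA ligase 1, was at least 9.91-fold higher, and Rrm1, of ribonucleotide reductase, rose by 3.13 ± 0.30. E2f1, Fen1, Orc1, Mcm10 and Tyms were not called.

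At the entry to the cycle, 12 of 25 genes rose and 2 fell. Ccnd1, the cyclin that growth factors induce, read 8.95, 9.10 and 9.11 in ADM, against 6.69, 6.20 and 6.95 in adult cells, while Ccnd2 fell by 1.28 ± 0.15 and Ccnd3 stood at -0.03 ± 0.17. Its partner Cdk4 rose by 1.74 ± 0.14. Some inhibitors and p53 targets rose beside them: Cdkn1a by 2.44 ± 0.22, Phlda3 by 2.84 ± 0.36, Pmaip1 by 2.23 ± 0.25 and Mdm2 by 2.21 ± 0.17. The p53 target Sesn1 fell by 1.40 ± 0.28. Others were not called, among them Bbc3, Fas, Ccng1, Zmat3, Cdkn1b, Cdkn1c and Cdkn2c. Cdkn2b rose by 1.94 ± 0.19, and its neighbour Cdkn2a stood at 0.71 ± 0.17, under the size threshold.

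Glycolysis genes rose in 12 of 23 cases, and none fell. Slc2a1, the glucose importer, read 10.30, 10.78 and 10.45 in ADM, against 7.75, 7.70 and 7.58 in adult cells. Pfkp, a phosphofructokinase, read 7.45, 8.54 and 7.57, against 5.30, 4.28 and 4.99. Pdk4, which limits pyruvate oxidation, rose by 3.45 ± 0.35, and Pkm by 2.37 ± 0.15. For Slc2a1, Pfkp, Pdk4 and Pkm alike, array 2 was the highest ADM array. Egln3, an oxygen sensor induced by hypoxia, read 6.24, 8.58 and 6.81 in ADM, against 2.96, 3.28 and 3.62 in adult cells. Car9 showed the same order, with 8.61, 9.73 and 8.72.

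Cholesterol synthesis genes rose in 10 of 18 cases. Hmgcs1, the enzyme before the rate-limiting step, rose by 2.70 ± 0.42, Cyp51 by 2.64 ± 0.24 and the controlling factor Srebf2 by 1.88 ± 0.19. Insig1, which holds back that factor, read 8.06, 7.86 and 7.54 in ADM, against 9.78, 10.03 and 9.71 in adult cells, a fall of 2.02 ± 0.37. Dhcr7, Lss and Mvd were not called.

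Of 22 oxidative stress genes governed by NRF2, 11 rose and 1 fell. Gsta4, a glutathione transferase for lipid aldehydes, read 10.65, 10.32 and 10.04 in ADM, against 5.11, 5.64 and 5.42 in adult cells. Hmox1, heme oxygenase 1, rose by 4.20 ± 0.41, Gclc, which limits glutathione synthesis, by 3.02 ± 0.25, and Nfe2l2, the NRF2 gene, by 2.70 ± 0.14. Nqo1, a standard NRF2 target, was at least 6.80-fold higher. Gstm2 went the other way at -2.91 ± 0.20, and Gpx1, Txn1 and Keap1 were not called.

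Lysosomal genes rose in 10 of 23 cases. Ctsh read 9.07, 8.59 and 8.74 in ADM, against 5.48, 5.02 and 5.01 in adult cells, and the protease Lgmn rose by 2.99 ± 0.24. Ctsb and Ctsd, cathepsins that act on trypsinogen in pancreatitis, stood at 0.78 ± 0.14 and 0.80 ± 0.15, under the size threshold. Every ADM array lay above every adult array for both, as for 25.1% of all genes. Mitochondrial and fatty acid genes were called in both directions, with 3 of 22 higher and 3 lower, against 12.5% and 4.22% of all genes. Ckb, brain creatine kinase, rose by 2.89 ± 0.24, and Idh2 fell by 1.5 ± 0.16.

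Counts of called chromatin genes depended on scaling. Among 19 genes of polycomb repressive complex 1, which ubiquitylates histone H2A, 5 rose (Pcgf5, Pcgf3, Rnf2, Yaf2 and Pcgf6, by 1.12 to 1.27). Under quantile normalization, loess and housekeeping centring none was called higher, and the list median of 0.33 became 0.13, 0.11 and -0.05. Rnf2 read 7.93, 7.79 and 7.91 in ADM, against 6.57, 6.92 and 6.38 in adult cells, and stood at 0.81 after quantile normalization. Bmi1 was not called at 0.34 ± 0.26, nor were Ring1, Rybp, Cbx2, Cbx7, Cbx8, Phc1, Phc2, Phc3, Pcgf1, Pcgf2, L3mbtl2, Bap1 and Usp16.

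For polycomb repressive complex 2, which methylates histone H3 at lysine 27, 7 of 15 genes rose, with 3, 3 and 2 under the same 3 scalings. Ezh2, its methyltransferase, read 7.90, 8.16 and 7.81 in ADM, against 5.43, 5.79 and 4.72 in adult cells, a 6.25-fold rise. Mtf2, Rbbp4, Epop, Rbbp7, Kdm6b and Eed rose by 1.04 to 1.51, Kdm6b being a demethylase that opposes the complex. Suz12, Jarid2, Ezh1, Aebp2, Phf1, Phf19, Kdm6a and Ezhip were not called.

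DNA methylation genes rose in 5 of 13 cases, with Dnmt1, which copies methylation at replication, at 2.40 ± 0.22 and its partner Uhrf1 at 2.32 ± 0.22, while Dnmt3a, Dnmt3b, Tet1, Tet2 and Tet3 were not called. Of 35 other histone-modifying genes 10 rose and 3 fell, and the split was 5 to 6 under quantile normalization. Hdac1 read 9.53, 9.48 and 9.74 in ADM, against 5.50, 7.11 and 6.52 in adult cells, and Kdm5b rose by 2.09 ± 0.32. Linker histone H1f5 read 9.43, 9.06 and 9.22, against 4.28, 3.06 and 5.04. Among imprinted and oncofetal genes Peg3 rose by 3.39 ± 0.18 and Mest by 2.49 ± 0.34, Gpc3 and Plagl1 fell (1 of them without ADM array 2 or adult array 2), and Igf2, Dlk1, Lin28b and Afp were not called. Of these 16 genes, 11 were lower in ADM than in embryonic cells, against 4.91% of all genes.

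Markers of other pancreatic cell types were examined because cultures of digested tissue can hold them. Of 20 fibroblast and stellate genes 8 rose and 1, Vtn, fell. Without ADM array 1, 3 of them were lower. The list had 15 genes above background in ADM and 16 in adult cells, and their summed linear signal was 4882 to 9007 in ADM, against 3248 to 3712 in adult cells. Vtn, also counted above among the plasma protein genes, had the highest adult mean of the list, 10.88, and averaged 3.59 in ADM. Bgn had the highest ADM mean of the list, 11.97, against 8.04 in adult cells. Vtn thus weighs most in the adult sum and Bgn in the ADM sum, so the sums are no measure of fibroblast content. Postn, periostin, read 9.95, 9.27 and 10.73 in ADM, against 4.57, 3.89 and 2.90. Pdgfra read 7.82, 6.31 and 8.22, against 4.11, 3.74 and 3.75, and Pdgfrb rose by 3.43 ± 0.28. Dcn, decorin, an abundant fibroblast transcript, read 9.15, 7.46 and 8.86, against 9.37, 9.33 and 9.39, and neither Dcn nor Dpt was called. Des and Gfap, stellate cell markers, were not called, with Gfap under background in both groups. In 15 of 20 genes array 2 was the lowest ADM array. Tumor cells were called lower than ADM for 13 of the 20 and embryonic cells higher for 11, against 5.07% and 4.91% of all genes.

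Of 21 leukocyte genes, 8 were above background in ADM and 11 in adult cells, with 2 called higher and none lower. Over all genes, 12.5% were called higher and 4.22% lower. Ptprc, the pan-leukocyte gene, read 3.24, 3.28 and 3.10 in ADM, against 3.44, 3.70 and 3.92 in adult cells. The macrophage genes Adgre1 and Csf1r and the T cell gene Cd3e lay at or near background in ADM. Cd14 rose by 3.75 ± 0.26 and Lyz2 by 1.41 ± 0.29, and the summed signal of the list was 949 to 1469 in ADM, against 523 to 564. Endothelial genes had 1 of 14 higher (Eng) and 1 lower (Plvap), none being lower without ADM array 3, with sums of 889 to 1029 in ADM, against 750 to 841. Islet hormones remained measurable and fell for Sst by 2.87 ± 0.27, Gcg by 1.26 ± 0.39 and Ins2 by 1.24 ± 0.38, with summed signal of 1051 to 1919 in ADM, against 2129 to 3099. In the islet list, 3 of 17 genes were lower, but 1 without ADM array 2 or without adult array 2. Neural genes had 1 of 9 higher (Ncam1), with Prph, Stmn2, Elavl4, Sox10, Cdh19, Tubb3 and Mbp not called, and mesothelial genes 2 of 8 higher and 1 lower, the 2 being Krt19 and Msln of the duct lists, with Upk3b at least 2.51-fold lower and Wt1, Upk1b, Lrrn4, Gpm6a and Muc16 not called. Mesothelial sums were 2420 to 2978 in ADM, against 234 to 246, while the list median difference was 0.025. Krt19 and Msln enter these sums, which are therefore no measure of mesothelial content. The 3 erythroid genes Slc4a1, Klf1 and Epb42 were not called. The part of such cells in the changes above was not tested.

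Against the 2 other cell populations, and with the same ADM arrays in each comparison, ADM cells had 1010 genes higher (4.55%) and 1088 lower (4.91%) than embryonic acinar cells, and 1125 higher (5.07%) and 727 lower (3.28%) than tumor cells. Of the 34 enzyme and granule genes, 24 were lower and 1 higher than in embryonic cells, and 28 were higher and none lower than in tumor cells. Bhlha15 averaged 4.16 ± 0.19 in ADM (SD, n = 3), against 7.87 in embryonic, 4.13 in tumor and 10.05 ± 0.07 in adult cells. Cckar averaged 8.70 in ADM, against 11.32 in embryonic, 3.59 in tumor and 12.09 in adult cells. The 2 genes thus differ in where ADM lies: Bhlha15 near the tumor level and Cckar between the extremes. Mmp7 averaged 11.45 in ADM, against 4.54 in embryonic, 3.86 in tumor and 4.58 in adult cells. Cldn4 averaged 10.50 in ADM, against 6.13 in embryonic, 3.55 in tumor and 3.73 in adult cells. For both genes ADM had the highest mean of the 4 groups. Itga2 averaged 10.41 in ADM and 10.57 in tumor cells, against 6.05 in embryonic and 3.78 in adult cells, so ADM lay near tumor cells. Cdk1 averaged 8.48 in ADM, against 9.02 in embryonic, 10.28 in tumor and 4.19 in adult cells.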

How the data were processed

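The submitters' values for 12 Affymetrix arrays were used, in 4 groups of 3. The deposited values are read here as log2 signal from their range and 2 decimals; per the labels, RNA was extracted with an RNeasy kit and biotin-labelled, and the software, background correction, normalization and log base are not given in the sources used here. Of 41345 probe sets, 23521 carried 1 gene symbol, 1814 several and 16010 none. The brightest probe set per symbol over all 12 arrays gave 22180 genes, 1082 of which had more than 1. An array gives no read depth, and the number of arrays limits precision.

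A linear model with 4 group means was fitted in limma 3.58.1 (R 4.3.3), with 8 residual and 5.02 prior degrees of freedom. Python 3.11.15 and pandas 2.3.3 made the tables, and the fit was tested on simulated data. Alternatives were quantile, cyclic loess and housekeeping scaling, a dim-gene filter, the mean of probe sets, 2 groups only, a replicate block, a trend in the spread, array weights, no fold minimum and leaving out each array.

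The members and lists were chosen with earlier results of these data known. Named genes were drawn from 16 fixed genes, the 20 highest and 20 lowest called genes, up to 6 called and 3 least changed members per list, all members of lists with 12 or fewer, 10 genes at background in 1 group only, and all EGF, immediate early and polycomb genes; in lists of over 12 genes, some of those drawn are given only in the counts. The 20 highest, the 20 lowest and the genes at background in 1 group only were picked so that the groups did not overlap. Other members and microRNAs named for their role or array pattern were chosen after their values were seen. Promoter and microRNA sequences came from RefSeq tables for GRCm38.p6.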

Additional observations from a re-analysis of the deposited data

Results flagged for a closer look

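Probe sets outside the comparison also differed between ADM and adult acinar cells. Of 16010 probe sets with no gene symbol, 524 were called higher (3.27%) and 431 lower (2.69%). Of 1814 probe sets with several symbols, 108 were called higher (5.95%) and 69 lower (3.8%). They were set aside because they could not be tied to 1 gene.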

How the results depend on the processing

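Against adult cells, housekeeping centring gave 1727 genes higher and 2505 lower in ADM, in place of 2766 and 935. Without a fold minimum the counts were 4637 higher and 3328 lower against adult, 2025 and 1872 against embryonic, and 1761 and 1643 against tumor cells. Leaving out single arrays gave 2675 to 2837 higher and 901 to 1018 lower against adult, 972 to 988 higher and 991 to 1115 lower against embryonic, and 1015 to 1311 higher and 605 to 1035 lower against tumor cells. Housekeeping centring also turned the balance of calls against embryonic cells (1183 higher and 963 lower, in place of 1010 and 1088) and tumor cells (960 and 1015, in place of 1125 and 727). The list medians and the histone enzyme split that turned with scaling are given above. Of 567 called genes in the lists or at the extremes, none changed direction under the alternatives run, and 503 kept their call under quantile normalization, 499 under loess, 489 under housekeeping centring and 543 to 548 with an array left out. Same-numbered arrays did not deviate together (correlations of 0.0154, -0.00665 and -0.00829), and the fit with the replicate number as a block kept 562 calls. Deposited values limit the work to the authors' unstated normalization, and probe sets near background or near the top of the scale bound what differences can be read.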
